A study of Collinsia rattanii with 18 samples.

Results

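The early step of bud development in *Collinsia rattanii* was examined as the change in gene expression between bud stages B1 and B2. Its members were the 6 floral bud libraries labelled *C. rattanii* B2 (3 plants) and *C. rattanii* B1 (the same 3 plants), chosen by species and stage, out of 18 libraries in all. The series measured RNA-seq counts per gene in whole buds of 3 *C. rattanii* plants, the highly selfing species, and 3 plants of its predominantly outcrossing sister *C. linearis*, each sampled at 3 stages before the flower opens. At B2 the buds of *C. rattanii* were of middle size with white petals and mostly yellow anthers, and at B1 they were the smallest, with green petals and green anthers; at B3, used here only for reference, the petals were violet. The *C. linearis* groups used for reference were B2, with mostly white petals and brown anthers, and B1, with green petals and green anthers. All plants were untreated and raised from seed of natural populations, the 3 *C. rattanii* plants coming from 2 populations, and which plant came from which is not given. Several whole buds were sampled per plant and stage, so each library mixes petals, stamens, pistil and sepals, and fewer cells of a type and less RNA per cell cannot be told apart. The sample labels name *C. rattanii* as the organism of every library, so the species was taken from the titles and genotypes.

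Buds at these stages are built by growing cell walls and by the anther. Pollen is wrapped in an exine of sporopollenin, a polymer whose precursors are made by the tapetum, the inner cell layer of the anther, and callose walls surround the young pollen cells before they separate. Xyloglucan is the main hemicellulose of the growing walls of petals, filaments and styles, and enzymes that cut and rejoin it act while cells expand. The count table pairs its gene identifiers with no name and no position, so most genes below are known by identifier alone, and apart from the pollen exine genes no marker of a tissue could be checked. Near-identical gene copies have uncertain counts, since no source used here says how shared reads were assigned.

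The 6 libraries held between 27455365 and 34589916 counts on genes, with overlapping ranges at the 2 stages, and between 29080 and 29695 genes with a count. Stage did not order them. In log2 CPM (counts per 1000000 on TMM-scaled library sizes) over 27837 genes, the most alike pair was B2 and B1 of plant 1 (Pearson's r = 0.983). Within a stage, B2 of plant 2 and B2 of plant 3 correlated at 0.901, and B1 of plant 1 and B1 of plant 3 at 0.909. B2 of plant 3 was closer to B1 of plant 1 (0.960) than to B1 of its own plant (0.901). B2 of plant 2 and B1 of plant 3 were thus the libraries farthest from others of their stage, and counts without each are given below. Whether a library carries the label of another stage was not tested, and each B2 or B1 value is that of the library so labelled.

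In the comparison of B2 with B1 no gene passed an FDR of 0.01. By edgeR's quasi-likelihood test with Benjamini-Hochberg adjustment, 0 of 27837 genes (0%) were past that threshold, and the lowest FDR was 0.106. At an unadjusted p under 0.05, without regard to multiple testing, there were 1475 genes (5.3%), of which 594 were higher and 881 lower at B2. The change was small for most genes, with a median size of 0.28 on the log2 scale, and 46.1% of tested genes were higher at B2. With the plant as a block the edgeR test also gave 0 genes, with a lowest FDR of 0.529 and 1275 genes at an unadjusted p under 0.05. DESeq2's Wald test called 49 of the 38037 genes it adjusted (0.129%), 28 higher and 21 lower at B2, and 96 with the plant block. edgeR's likelihood ratio test called 11 genes and limma-voom with library weights 1. Without B1 of plant 3 the DESeq2 count was 25 and 736 genes had an unadjusted edgeR p under 0.05, and without B2 of plant 2 these counts were 59 and 1102. Without B1 of plant 1 the DESeq2 count was 120. Without all libraries of plant 3 it was 7, of which 2 were among the 49.

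Libraries of the stages were fully separated for 1310 genes with all 3 B2 libraries above all 3 B1 libraries (4.71%) and for 1450 genes with all 3 below (5.21%). If stage had no bearing on the order of the 6 libraries, full separation in a given direction would be reached at about these shares. The counts alone therefore do not show a step. These are the shares over all tested genes, and every count of separated genes among those named below is to be read against them.

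Of the genes separated between the stages and higher at B2 in every plant, RCORA76661 had the lowest p. It had 5.65, 18.8 and 15.7 CPM at B2 in plants 1, 2 and 3, against 1.9, 2.18 and 1.43 CPM at B1. All B2 libraries lay above all B1 libraries, with plants 2 and 3 farther up than plant 1, and at B3 the levels were 9.32 to 10.8 CPM. The change was 2.86 ± 0.42 on the log2 scale (SE from the fit of all 18 libraries, 3 plants a stage, edgeR FDR = 0.106, DESeq2 FDR = 7.44e-08). The edgeR FDR was 0.00801 without B2 of plant 1, the only named gene and leave-out past 0.01, and between 0.147 and 1 in the other 8 leave-outs.

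RCORA12690 was next, with 2.45, 3.13 and 4.53 CPM at B2, against 0.454, 0.324 and 0.337 CPM at B1. The groups did not overlap and the plants lay close together at each stage. Its change was 3.17 ± 0.53 (SE; edgeR FDR = 0.249, DESeq2 FDR = 1.41e-06). RCORA84907 had 20.1, 35.2 and 35 CPM at B2, against 6.21, 5.42 and 3.51 CPM at B1, and RCORA81414 had 61.4, 83.2 and 123 CPM at B2, against 26.3, 20.1 and 10.4 CPM at B1. In both genes the plant with the lowest level at B1, plant 3, was level with or above the others at B2. Their changes were 2.58 ± 0.45 and 2.24 ± 0.42 (SE; edgeR FDR = 0.287 and 0.493). Both genes had lower levels again at B3, at 9.35 to 12 CPM for RCORA84907 and 32.1 to 40 CPM for RCORA81414.

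RCORA35192 had 130, 257 and 202 CPM at B2, against 80.4, 74.2 and 26.1 CPM at B1, a change of 1.7 ± 0.36 (SE; edgeR FDR = 0.556). RCORA50895 was close to absent at B1, with 2.51, 7.69 and 3.78 CPM at B2, against 0.142, 0.206 and 0.0561 CPM at B1. RCORA175882 had 58 counts in the 3 B2 libraries together, against 1 count in the 3 B1 libraries, a ratio of 58.3 with a 95% exact counting interval of 10.1 to 2340 that covers counting error only. RCORA175775 varied most among these 8 genes. It had 9.89, 1.82 and 31.4 CPM at B2, against 0.0284, 0.412 and 0.112 CPM at B1, so the step was smallest in plant 2, where the gene reached 35 CPM only at B3.

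Of the genes separated and lower at B2 in every plant, RCORA138433 had the lowest p. It had 0.849, 0.41 and 0.722 CPM at B2, against 12.9, 24.3 and 16.8 CPM at B1. The B2 libraries all lay far below the B1 libraries, and the gene stayed low at B3 (0.6, 0.513 and 2.37 CPM). The change was -4.77 ± 0.71 on the log2 scale (SE from the fit of all 18 libraries, 3 plants a stage, edgeR FDR = 0.106, DESeq2 FDR = 2.58e-09). It lay between -5.13 and -4.15 over the leave-outs.

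RCORA230519 had 18.3, 7.1 and 5.05 CPM at B2, against 65.5, 71 and 54.7 CPM at B1. It was lower still at B3, at 2.52 to 4.51 CPM, so its levels were ordered by stage in every plant. The change was -2.65 ± 0.47 (SE; edgeR FDR = 0.317, DESeq2 FDR = 7.54e-05). RCORA69520 had 8.19, 6.07 and 2.72 CPM at B2, against 23.2, 31.1 and 42.3 CPM at B1, and RCORA38643 had 0.359, 0.333 and 0.52 CPM at B2, against 1.48, 1.8 and 2.61 CPM at B1. Neither gene overlapped between the stages, and at B3 both stayed near their B2 level. RCORA181496 had 0.359 to 0.549 CPM at B2, against 2.61 to 6.39 CPM at B1. RCORA51397 had 1.13 to 1.99 CPM at B2, against 5.22 to 8.62 CPM at B1, and RCORA208649 had 1.7 to 2.74 CPM at B2, against 5.79 to 19.4 CPM at B1. The edgeR FDR of these 5 genes lay between 0.556 and 0.607. The eighth gene, RCORA34075, had 0.0326, 0.102 and 0.173 CPM at B2, against 0.397, 7.48 and 6.96 CPM at B1, so plant 1 was low at both stages.

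**Figure D1:**
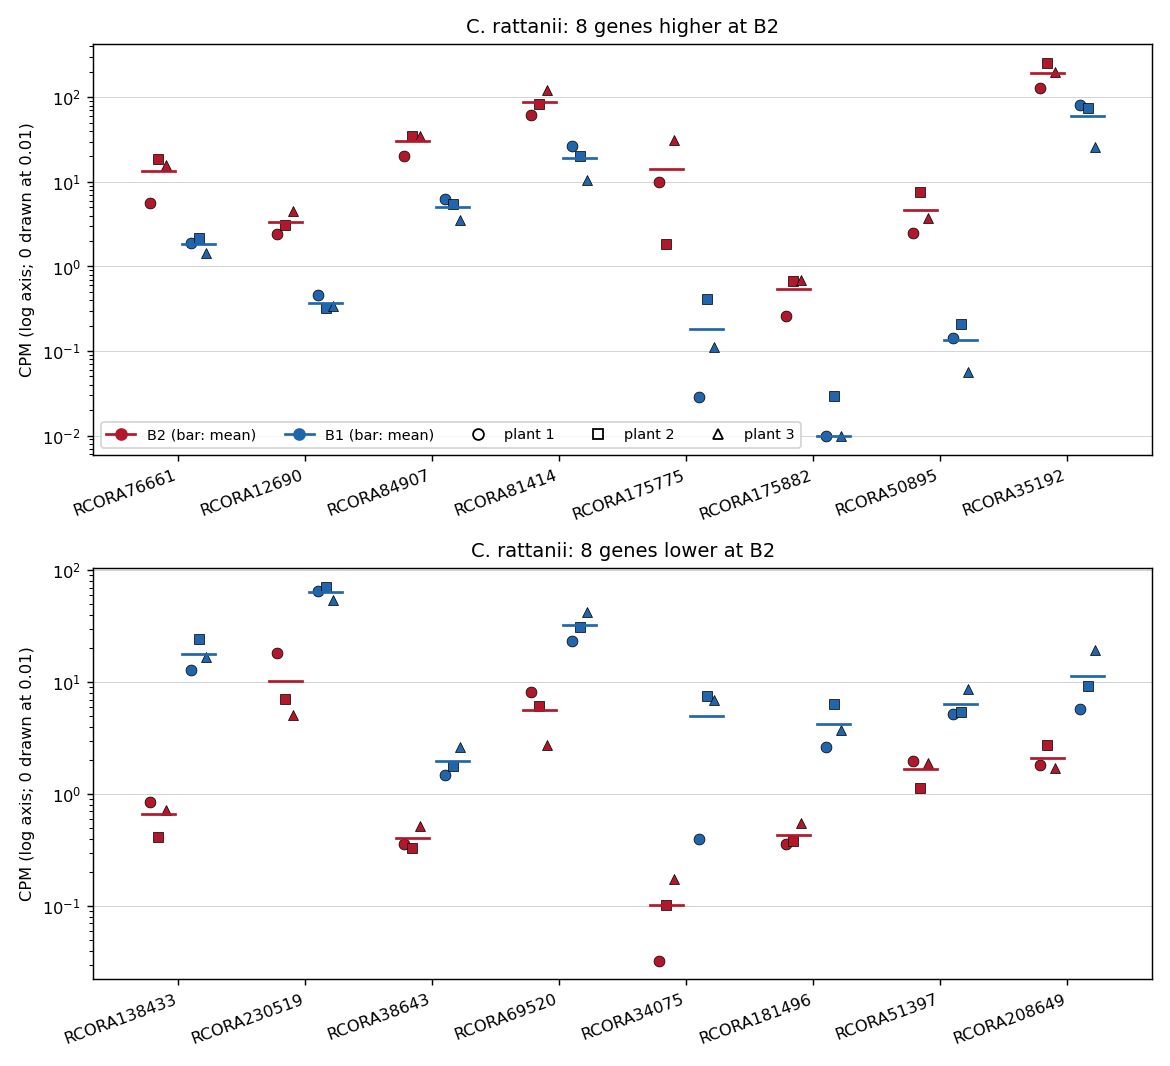
CPM (log axis) of the 8 genes higher and the 8 genes lower at B2 with the lowest p among genes separated between the stages, in each *C. rattanii* library. Red marks B2 and blue B1, the marker shape gives the plant, bars are means over 3 plants, and values of 0 are drawn at 0.01. In every gene the red and blue points do not overlap, which the choice of genes required, and RCORA138433 shows the B2 libraries at 0.41 to 0.849 CPM below the B1 libraries at 12.9 to 24.3 CPM.

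The 49 genes that DESeq2 called differed in depth. For 9 of them the 6 libraries held at most 8 counts in sum, and 8 of these 9 had 5 CPM or more in B3 of plant 3, a library outside the comparison. The other 40 had at least 20 counts, 25 higher and 15 lower at B2. Of the 40, 32 were separated between the stages, 39 had the same sign in all 3 plants, and 39 had an unadjusted edgeR p under 0.05. The calls were made on these same libraries, so these counts are not independent of the choice. RCORA58943, counted as separated, was at 0 in all B2 libraries, against 0.0284, 1.71 and 0.0281 CPM at B1, and had 61.9 CPM in B3 of plant 3. Among the 25 higher genes, the mean at B3 was above that at B2 for 7 and between B1 and B2 for 18. Among the 15 lower genes, it was below B2 for 5, between for 9 and above B1 for 1. In 6 of the 25 higher genes, among them RCORA206590 and RCORA44762, B2 of plant 2 did not lie above the B1 libraries while B2 of plants 1 and 3 did.

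The genes with the largest fitted changes were taken from calls with a count in each of the 6 libraries and one sign in all 3 plants. Even so, the size of the step was uneven between plants. RCORA206590 had 13.7, 0.0512 and 35.7 CPM at B2, against 0.0568, 0.0294 and 0.0561 CPM at B1. Plants 1 and 3 were high at B2 and plant 2 was not, although plant 2 had 32.5 CPM at B3. The fitted change was 8.32 ± 2.15 (SE; edgeR FDR = 0.657, DESeq2 FDR = 0.000178). RCORA44762 had 49.4, 3.48 and 90 CPM at B2, against 3.94, 0.883 and 0.393 CPM at B1, and it reached 298 CPM in plant 2 at B3. RCORA129508 had 2.19, 0.205 and 9.5 CPM at B2, against 0.227, 0.118 and 0.0561 CPM at B1. Its change of 4.85 was 3.12 without B2 of plant 3 and 2.76 without plant 3. In RCORA175775, RCORA206590 and RCORA44762 the level of plant 2 was thus far higher at B3 than at B2.

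Of the 5 lowered genes of this kind, 3 shared a pattern over plants, while RCORA34075, given above, had its highest B1 level in plant 2. RCORA14395 had 0.522, 0.512 and 2.37 CPM at B2, against 3.43, 35.6 and 117 CPM at B1. RCORA182504 had 0.261, 0.487 and 1.1 CPM at B2, against 1.25, 28.5 and 57.3 CPM at B1, and RCORA10605 had 0.0326, 0.128 and 0.144 CPM at B2, against 1.65, 8.89 and 22.5 CPM at B1. In all 3 genes B1 was highest in plant 3, then plant 2, then plant 1, while the B2 libraries were all low. At B3 plant 3 was high again (80.5, 47.7 and 29.5 CPM), plant 1 was intermediate and plant 2 stayed at 0.118 to 0.197 CPM. The fitted changes were between -6.68 and -5.52, with edgeR FDR = 0.685 in each and DESeq2 FDR between 0.00462 and 0.00684. RCORA71035 rested on 1 library: it had 0.326, 2.9 and 1.91 CPM at B2, against 2.67, 6.56 and 176 CPM at B1, and its change of -5.17 ± 1.35 was -1.41 without B1 of plant 3 and -1.51 without plant 3.

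**Figure D2:**
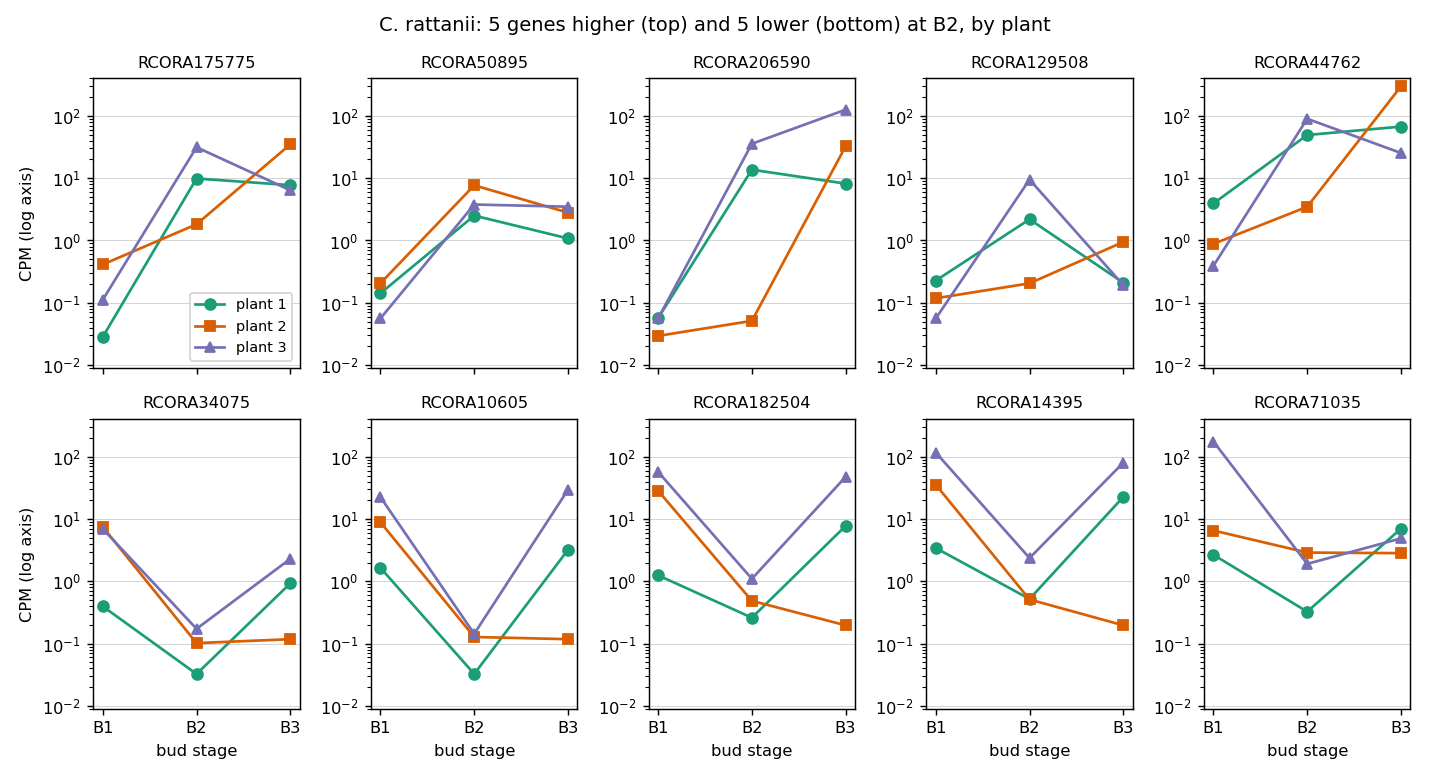
CPM (log axis) at B1, B2 and B3 of 5 genes higher (top row) and 5 lower (bottom row) at B2. They have the largest fitted changes among DESeq2's calls with a count in each of the 6 libraries and the same sign in all 3 plants. The shared direction between B1 and B2 was thus required by the choice. Each line is 1 *C. rattanii* plant. RCORA206590 is high in plants 1 and 3 at B2 (13.7 and 35.7 CPM) and in plant 2 only at B3 (32.5 CPM), and RCORA14395 is low in all plants at B2 and at 80.5 CPM in plant 3 at B3.

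The size and direction of the step differed between plants over the whole transcriptome. Between B1 and B2, 8.01% of genes differed by more than 2-fold in plant 1, 24.2% in plant 2 and 29.4% in plant 3, in log2 CPM with a prior count of 2. Across 27837 genes, which are not independent replicates, the changes of plants 1 and 2 correlated at r = 0.398, those of plants 1 and 3 at 0.0973, and those of plants 2 and 3 at -0.188. Plants 2 and 3 moved apart in particular: 1861 genes were more than 2-fold lower at B2 in plant 2 and more than 2-fold higher in plant 3, against 319 more than 2-fold higher and 967 more than 2-fold lower in both.

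**Figure D3:**
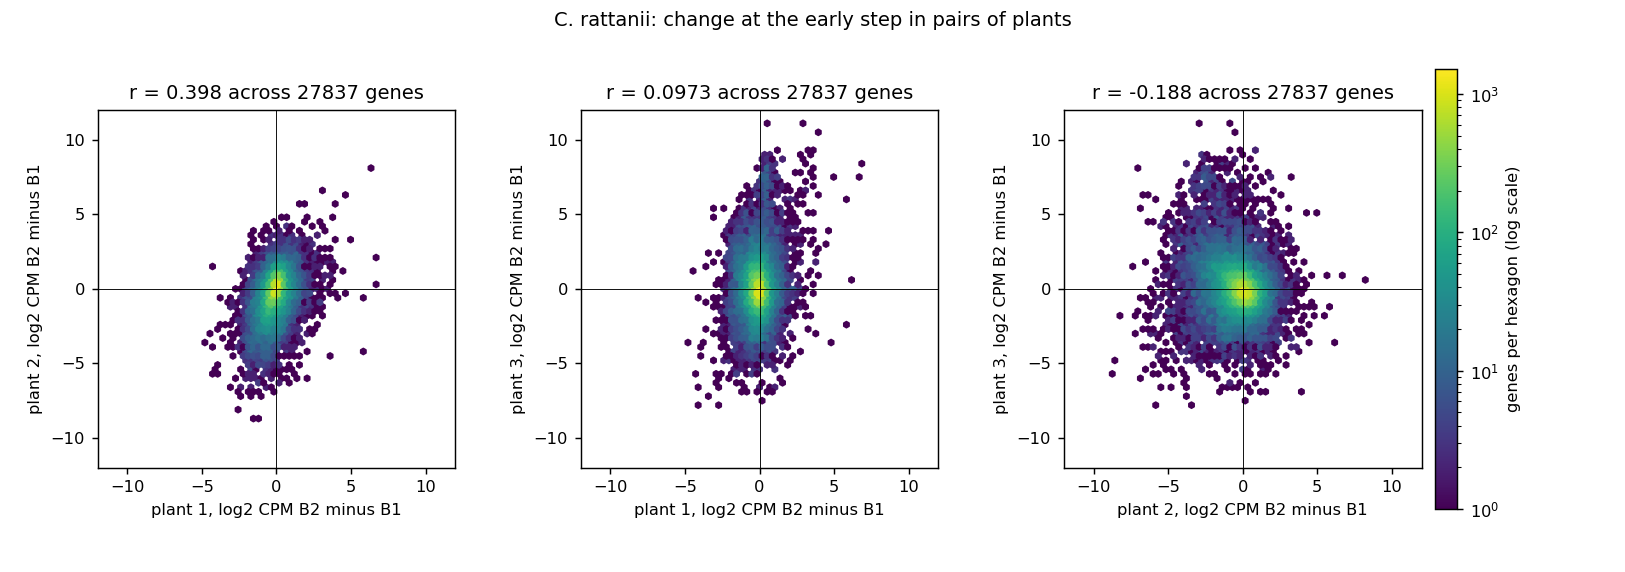
Change in log2 CPM (B2 minus B1) of 27837 genes in each pair of *C. rattanii* plants. Colour gives the number of genes per hexagon on a log scale. Plants 1 and 2 share part of their change (r = 0.398), plants 2 and 3 do not (r = -0.188), and a group of genes stands apart at the top of the plant 3 axis.

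A group of 219 genes was more than 64-fold higher at B2 than at B1 in plant 3, while only 3 genes were so in plant 1 and 3 in plant 2. They were chosen after their values were seen and are described without a test. Their median change was 7.24 on the log2 scale in plant 3, 0.50 in plant 1 and -2.07 in plant 2. The median CPM over the group was 47.4, 0.538 and 58.8 at B2 in plants 1, 2 and 3, against 27.6, 2.5 and 0.253 at B1, and 8.31, 19.9 and 0.864 at B3. The group was thus high in both libraries of plant 1 and in B2 of plant 3, and low in B2 of plant 2 and in B1 of plant 3. The median over all tested genes lay between 8.69 and 9.36 CPM in the 6 libraries.

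Of the 219 genes, 197 were higher at B2 in plant 1 and 28 in plant 2, and 9 were among DESeq2's 49 calls. RCORA156610 showed the pattern, with 560, 4.33 and 614 CPM at B2, against 446, 29.6 and 2.55 CPM at B1, and a fitted change of only 1.3 ± 1.96 (SE; edgeR FDR = 1). RCORA181185 (502, 5.33 and 565 CPM at B2, against 411, 32 and 3.17 CPM at B1) and RCORA201434 (466, 2.31 and 531 CPM at B2, against 406, 34.2 and 1.38 CPM at B1) moved with it almost value for value. RCORA238445 was higher at B2 in plants 1 and 3 but not in plant 2, with 538, 4.61 and 943 CPM at B2, against 70.3, 9.21 and 0.337 CPM at B1. RCORA39506 had 407, 10.2 and 972 CPM at B2, against 51.3, 27 and 2.39 CPM at B1. RCORA192834, one of DESeq2's calls, had 465, 32.3 and 1120 CPM at B2, against 40.1, 17.4 and 1.71 CPM at B1, and alone among these 6 was higher at B2 in plant 2 as well.

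The *C. linearis* libraries had no part in the 64-fold limit that set the 219 genes, but the filter on low counts and the scaling used them. In *C. linearis* the group had a median of 34.3, 216 and 83.5 CPM at B2, against 50.1, 2.09 and 0.683 CPM at B1. Plants 2 and 3 were low at B1 and high at B2, and plant 1 was high at both. The fitted *C. linearis* change was above 0 for 198 of the 219 genes (90.4%), against 50% of all tested genes, with a median of 2.85.

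Genes that moved more than 2-fold in the same direction in all 3 plants were fewer in *C. rattanii* than in *C. linearis*. Of 27837 tested genes, 116 were more than 2-fold higher at B2 in each *C. rattanii* plant and 237 more than 2-fold lower. In *C. linearis* these counts were 346 and 384. The 116 had a median of 4.92 CPM at B2, against 1.02 at B1, and 5.19 at B3. The 237 had a median of 0.578 CPM at B2, against 4.82 at B1, and 1.83 at B3. In 163 of the 237 the B1 level was highest in plant 3 (68.8%, against 40% of all tested genes). In *C. linearis* the fitted change was above 0 for 90 of the 116 (77.6%) and below 0 for 90 of the 237 (38%), where 50% and 48.2% of all tested genes were. Both groups were chosen by their *C. rattanii* changes, so those are not independent of the choice. Their *C. linearis* changes had no part in the 2-fold limit, but the filter on low counts used all 18 libraries.

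The pollen exine genes stayed at a low level through the step in *C. rattanii*. The study selected these genes, and those of the groups that follow, on these same libraries for a difference between the species over the stages, so their *C. rattanii* levels are not independent of that choice, and other genes annotated to these processes are not analysed here. Of the 9 such pollen exine genes analysed here, 8 passed the filter on low counts. The fitted change was above 0 for 6 and below 0 for 2, none passed the FDR or an unadjusted p of 0.05, and their median was 0.54, where the median over all tested genes was -0.03. Their summed level was 39.7, 44.7 and 51.8 CPM at B2 in plants 1, 2 and 3, against 31.6, 30.8 and 50.8 CPM at B1. The stages overlapped. In *C. linearis* the sum was 30.6, 40 and 24.4 CPM at B2, against 34.1, 2810 and 5940 CPM at B1, so plant 1 of *C. linearis* at B1 had a sum like that of the *C. rattanii* libraries and its other plants did not.

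RCORA09826, the ortholog of LAP5, a chalcone synthase-like enzyme that makes sporopollenin precursors in Arabidopsis, had 3.98, 3.41 and 3.96 CPM at B2, against 3.66, 3.27 and 8.96 CPM at B1. RCORA03278, the ortholog of LAP6, which acts beside LAP5 in Arabidopsis, had 12.1, 20.8 and 12.1 CPM at B2, against 11.3, 11.9 and 20.1 CPM at B1. In both genes B1 of plant 3 was above the other B1 libraries. The changes were -0.49 ± 0.93 and 0.06 ± 0.87 (SE from the fit of all 18 libraries, 3 plants a stage, edgeR FDR = 1 for both). RCORA14962, which is also annotated to lipid metabolism, had the same outlying library, with 2.51, 2.08 and 2.83 CPM at B2, against 1.5, 1.35 and 7.94 CPM at B1. Without B1 of plant 3 the changes of RCORA09826 and RCORA14962 were 0.16 and 0.82 in place of -0.49 and -0.54.

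RCORA186672, also annotated to sporopollenin biosynthesis, had 6.85, 9.2 and 9.7 CPM at B2, against 6.27, 5.71 and 7.1 CPM at B1, with a change of 0.43 ± 0.71. RCORA171666 and RCORA201861 were the 2 of these genes whose stages did not overlap. RCORA171666 had 5.94, 3.33 and 4.25 CPM at B2, against 3.32, 3.24 and 2.08 CPM at B1, and RCORA201861 had 0.653, 0.743 and 0.549 CPM at B2, against 0.482, 0.147 and 0.309 CPM at B1. Their edgeR FDR was 1 for both. RCORA175575 was at 18.4 CPM in B2 of plant 3 and at 4.15 to 7.28 CPM in the other 5 libraries. The 2 genes also annotated to callose deposition were near 0 throughout: RCORA36422 had 7 counts in the 3 B2 libraries, against 1 in the 3 B1 libraries (ratio 7.04, 95% exact counting interval 0.904 to 317), and RCORA205649, which did not pass the filter, had 0.0289 to 0.131 CPM at B2, against 0 to 0.0842 CPM at B1.

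**Figure D4:**
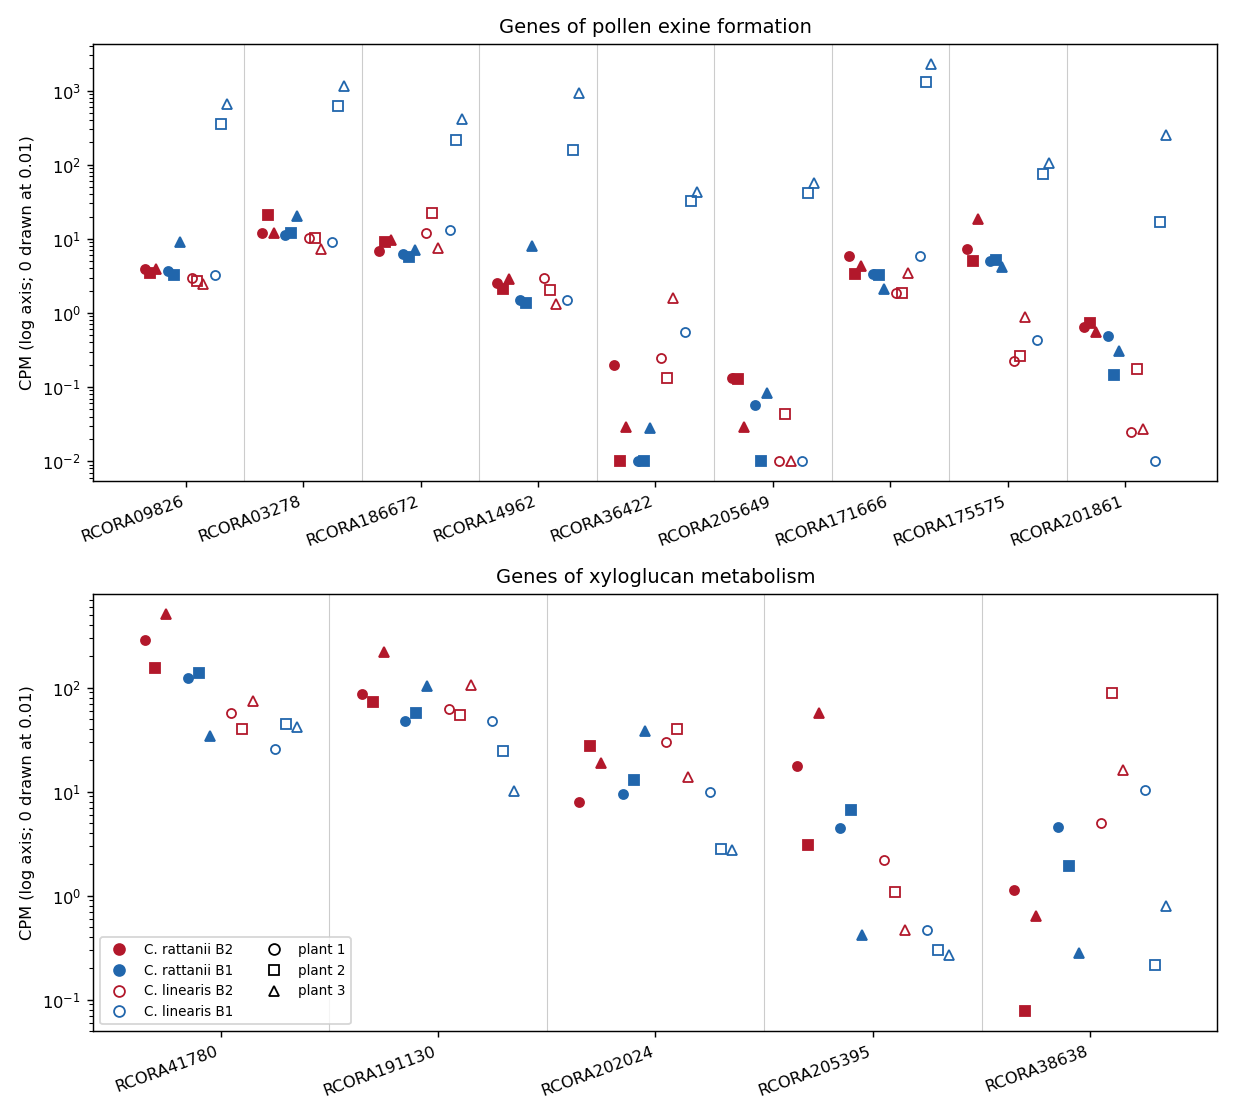
CPM (log axis) of 9 pollen exine genes (top) and 5 xyloglucan genes (bottom) that the study selected, in each library. Filled points are *C. rattanii*, open points *C. linearis*, red is B2 and blue B1, the marker shape gives the plant, and values of 0 are drawn at 0.01. The exine genes of *C. rattanii* sit at or below 20.8 CPM at both stages, while plants 2 and 3 of *C. linearis* at B1 reach 1300 and 2300 CPM in RCORA171666.

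The summed level of the 5 selected xyloglucan metabolism genes was 403, 259 and 807 CPM at B2, against 191, 217 and 176 CPM at B1, and all B2 sums lay above all B1 sums. RCORA41780 carried most of the sum at B2, with 289, 156 and 510 CPM at B2, against 125, 139 and 34.2 CPM at B1. Its stages did not overlap, but plant 2 hardly differed, and the change of 1.68 ± 0.54 did not pass (edgeR FDR = 0.759). RCORA205395 had 17.7, 3.05 and 56.7 CPM at B2, against 4.43, 6.65 and 0.421 CPM at B1, so it was lower at B2 in plant 2, and its change of 2.75 ± 1.18 did not pass (edgeR FDR = 0.886). It is also 1 of the 219 genes that stood apart in plant 3. RCORA191130 had 86.5, 72.8 and 222 CPM at B2, against 47.9, 57.1 and 103 CPM at B1. RCORA202024 (-0.17 ± 0.79) and RCORA38638 (-1.89 ± 1.61) overlapped between the stages. In all, 3 of the 5 were higher, 2 lower and 2 had an unadjusted p under 0.05 (5.3% of all tested genes), with a median change of 0.87, and none passed the FDR.

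The 2 selected genes of glycerol-3-phosphate catabolism, putatively encoding glycerol-3-phosphate dehydrogenase, an enzyme that links sugar and glycerolipid metabolism, overlapped between the stages. RCORA02590 had 22.8, 11.5 and 30.9 CPM at B2, against 23.9, 18.9 and 11 CPM at B1, and RCORA68085 had 26.8, 45 and 26.2 CPM at B2, against 23.3, 40.9 and 40.6 CPM at B1. The study names 3 genes as also annotated to regulation of transcription, and its group for that process was larger. Of these 3, RCORA41810 separated the stages, with 7.15, 5.2 and 6.87 CPM at B2, against 4.09, 3.47 and 2.95 CPM at B1. Its change of 0.87 ± 0.40 did not pass (edgeR FDR = 0.929). RCORA61416 had 17.5, 27.1 and 40.9 CPM at B2, against 10.8, 31.2 and 71.3 CPM at B1, with plant 1 lowest and plant 3 highest at both stages. RCORA141603 had 0.289 to 0.457 CPM at B2, against 0.0568 to 0.449 CPM at B1.

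The genes that took the most reads at B2 included 2 whose level at that stage depended on the plant. RCORA184251 had 3790, 83.1 and 8370 CPM at B2, against 1190, 851 and 252 CPM at B1, and RCORA38539 had 4600, 4990 and 385 CPM at B2, against 2230, 2610 and 1330 CPM at B1. In RCORA184251 plant 2 was lowest at B2 and in RCORA38539 plant 3 was. At B3 RCORA38539 was higher in every plant, at 9250 to 17400 CPM. RCORA221448, RCORA221618 and RCORA96553 had between 1930 and 5470 CPM at B2, against 2120 to 5740 CPM at B1, with overlapping stages. The edgeR FDR of these 5 genes lay between 0.965 and 1.

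No gene was at 0 in all libraries of one stage and at 10 or more counts in each library of the other. With at least 1 count in each library of the other stage, 34 genes were at 0 in all of B1 and 86 in all of B2. These are out of 33372 genes with a count in the 6 libraries. A limit of 1 count lies at the floor, and the difference between 34 and 86 was not tested. The highest such sum was 158 counts over the B2 libraries and 878 counts over the B1 libraries.

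To see whether the step differed from that of *C. linearis*, the difference of the changes was tested. The *C. linearis* step had a median size of 0.52 on the log2 scale, 4 genes past an FDR of 0.01 in edgeR's quasi-likelihood test (9 with the plant block), and 5281 genes (19%) at an unadjusted p under 0.05. By plant, 20.3%, 42.5% and 32.9% of genes differed by more than 2-fold in *C. linearis* plants 1, 2 and 3, so its plant 1 lay below *C. rattanii* plants 2 and 3. The difference itself passed an FDR of 0.01 for 0 genes in that test, with a lowest FDR of 0.123 and 2476 genes (8.89%) at an unadjusted p under 0.05. With the plant block it passed for 2 genes, by limma-voom for 20, by edgeR's likelihood ratio test for 91 and by DESeq2 for 164. The study, which used DESeq2's Wald test for its planned contrasts, also reports 164 genes for early development. Without B1 of *C. linearis* plant 1, the library with the low exine sum, the edgeR quasi-likelihood test gave 98 genes. Across genes the fitted changes of the species correlated weakly (r = 0.159, n = 27837 genes fitted with shared dispersions), and 54.3% of genes had the same sign in both.

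The change of *C. rattanii* plant 3 correlated with those of *C. linearis* plants 1, 2 and 3 at 0.0424, 0.332 and 0.358, where *C. rattanii* plants 1 and 2 gave values between -0.109 and -0.0151 with *C. linearis* plants 2 and 3. Of the 1310 genes separated and higher at B2 in *C. rattanii*, 160 were so in *C. linearis* as well (12.2% of the *C. rattanii* genes and 8.39% of the *C. linearis* genes). Of the 1450 separated and lower, 216 were shared (14.9% and 7.38%). Of all tested genes, 6.85% were separated and higher and 10.5% separated and lower at B2 in *C. linearis*. Opposite directions were seen in 66 of the higher genes (5.04%) and 67 of the lower genes (4.62%) of *C. rattanii*.

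Among the 16 genes with the lowest p, several had a like step in *C. linearis*. RCORA138433 had 30.6, 35.7 and 8.61 CPM at B2, against 89.9, 176 and 177 CPM at B1 in *C. linearis*, a change of -2.56 ± 0.62. RCORA76661 (1.81 ± 0.42), RCORA81414 (1.89 ± 0.42) and RCORA230519 (-1.83 ± 0.46) also had the same direction there in all 3 plants. None of these 4 passed in *C. linearis* (edgeR FDR from 0.0611 to 0.0861), and the difference between the species did not pass either (edgeR FDR from 0.468 to 0.875). RCORA84907 had only 0.915 to 2.51 CPM at B2, against 0.835 to 2.01 CPM at B1 in *C. linearis*, with a change of 0.16 ± 0.44, and RCORA69520 had a change of 0.16 ± 0.49 there. Their differences were 2.42 ± 0.61 and -2.66 ± 0.71, again not past the threshold (edgeR FDR = 0.293 and 0.306, DESeq2 FDR = 0.0171 and 0.0275).

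**Figure D5:**
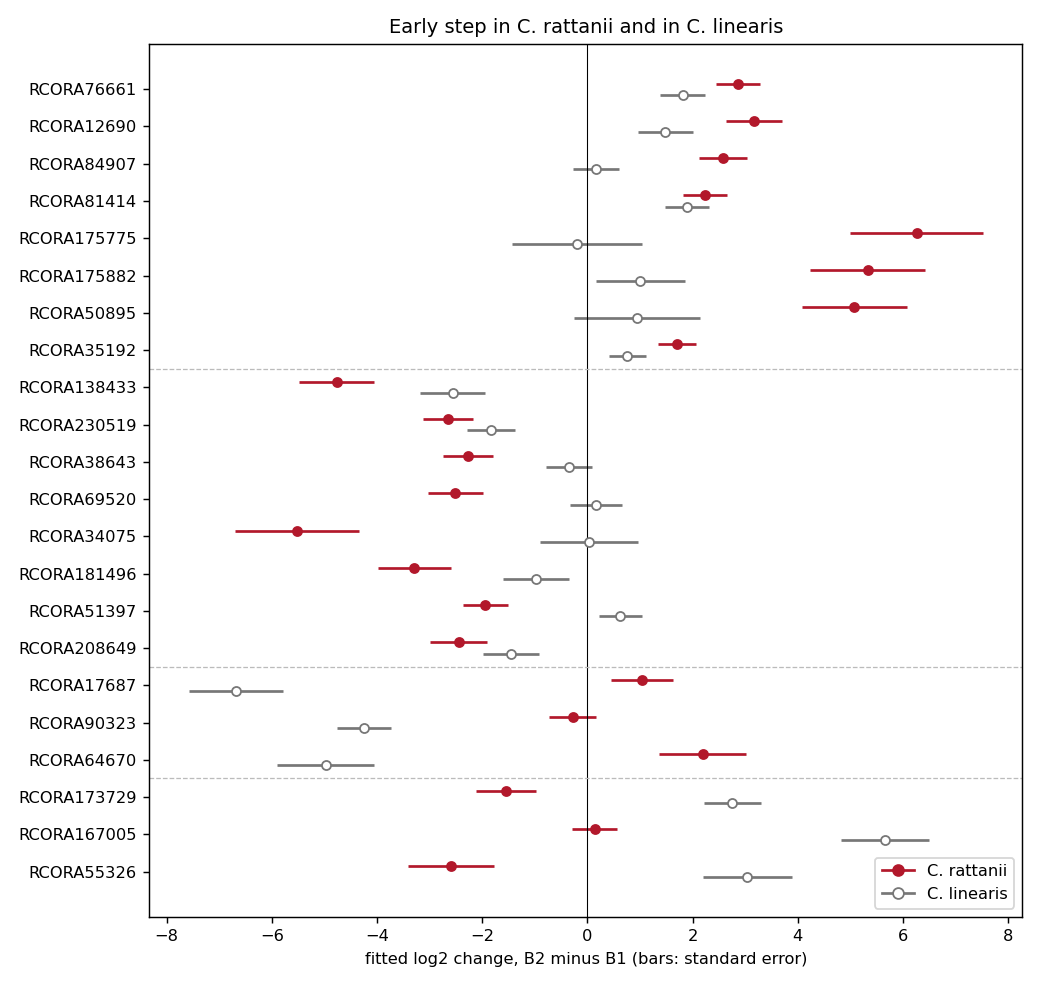
Fitted log2 change (B2 minus B1, bars are standard errors) in *C. rattanii* (red) and *C. linearis* (grey, open). From the top, groups split by dashed lines are the 8 genes higher and 8 lower at B2 with the lowest p in *C. rattanii*, and the 3 genes per direction with the lowest p for the difference between the species. RCORA138433 lies below 0 in both species (-4.77 and -2.56), and RCORA17687 lies on opposite sides (1.03 and -6.68).

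Of the genes with the lowest p for the difference, RCORA17687 had 5.03, 5.15 and 4.59 CPM at B2, against 2.41, 3.09 and 1.74 CPM at B1 in *C. rattanii*. In *C. linearis* it had 0, 0 and 0.0273 CPM at B2, against 0.433, 1.19 and 2.66 CPM at B1. The difference between the species' changes was 7.71 ± 1.09 (edgeR FDR = 0.123, with the plant block 0.0196, DESeq2 FDR = 7.87e-06). RCORA90323 had 24.3, 16.1 and 20.6 CPM at B2, against 18, 23.6 and 32.1 CPM at B1 in *C. rattanii*, and 2.52, 0.787 and 4.35 CPM at B2, against 32.6, 60.3 and 53.9 CPM at B1 in *C. linearis*. Its *C. linearis* change passed (-4.25 ± 0.52, edgeR FDR = 0.00993) and its *C. rattanii* change did not (-0.28 ± 0.45, FDR = 1), while the difference had edgeR FDR = 0.139. RCORA64670 had 9.83, 3.71 and 21.3 CPM at B2, against 4.03, 2.09 and 1.52 CPM at B1 in *C. rattanii*, and was lower at B2 in every *C. linearis* plant.

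In the other direction, RCORA173729 had 0.0979, 0.128 and 0.0867 CPM at B2, against 0.17, 0.294 and 0.477 CPM at B1 in *C. rattanii*, and 5.91, 3.98 and 3.17 CPM at B2, against 0.804, 0.624 and 0.493 CPM at B1 in *C. linearis*. RCORA55326 had 8.32, 9.66 and 12.3 CPM at B2, against 11.4, 72.3 and 99.5 CPM at B1 in *C. rattanii*. The high B1 libraries were again those of plants 2 and 3. In *C. linearis* it had 2.89, 17.4 and 19.5 CPM at B2, against 2.13, 1.25 and 1.44 CPM at B1, so the changes were of like size (-2.60 ± 0.82 and 3.04 ± 0.85). RCORA167005 was level in *C. rattanii* (4.37, 7.79 and 3.61 CPM at B2, against 4, 3.68 and 6.6 CPM at B1), and it had 0.124 to 0.262 CPM at B2, against 0 at B1, in *C. linearis*. The edgeR FDR of the 3 differences lay between 0.139 and 0.178.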

How the data were processed

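Reads of *C. rattanii* and of *C. linearis* were mapped by the authors with STAR to a genome of *C. rattanii*, and those on gene models were summed with featureCounts. The deposited values are raw counts per gene, neither normalized nor filtered. The annotation drew on 6 of the 9 *C. rattanii* libraries. Library preparation was directional, and whether counting used strand or multi-mapped reads was not given in the sources used here. Besides, the table holds 2 further library columns that match no single sample and were not used.

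Counts of all 18 libraries were analysed in R 4.3.3 with edgeR 4.0.16 (filterByExpr on 6 groups, TMM, robust quasi-likelihood fit on species, stage and their interaction). The contrast was *C. rattanii* B2 minus B1, with Benjamini-Hochberg adjustment and an FDR of 0.01. Standard errors restate the F-test, which has no plant term, and do not measure the spread of the changes between plants. CPM are on TMM library sizes, and log2 CPM per plant used a prior count of 2. DESeq2 1.42.0 (Wald test) and limma 3.58.1 (voom with library weights) were alternatives, with other normalizations, filters, blocks and leave-outs. The fits were also run on simulated counts, drawn for each library without a plant effect. That run does not cover the differences between plants seen here.

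The 3 plants are separate individuals, and libraries of a plant are paired by the labels. Deviations from the stage means correlated at 0.602, -0.0191 and -0.168 within plants 1, 2 and 3. Between plants, B2 of plant 2 and B1 of plant 3 correlated at 0.486, and the lowest values were -0.538 and -0.522. No pair of libraries of a stage agreed within sampling noise (chi-square per degree of freedom 50.8 to 286), so none was counted as a repeat.

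The members, gene lists and rules were chosen with earlier results of these data known. Named were genes with functions given by the study (9 identifiers stand in its text, 10 were taken from an earlier report on the series, which read them from a picture), the 8 genes per direction with the lowest p among those separated between stages with the same sign in all plants, the 5 per direction with the largest change among DESeq2's calls with a count in all 6 libraries, the 5 with the most reads at B2, and the 3 per direction with the lowest p for the species difference and plant changes that do not overlap between species. Genes outside these rules were named after their values were seen.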

Additional observations from a re-analysis of the deposited data

Results flagged for a closer look

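For 8 named genes the change from B1 to B2 had one sign in all 3 *C. rattanii* plants and the opposite sign in all 3 *C. linearis* plants. How many of all tested genes had this pattern was not counted, so the 8 cannot be set against a background share. None of the 8 differences passed an FDR of 0.01 in edgeR's quasi-likelihood test. All 8 did in DESeq2, which called 164 of the 28351 genes it adjusted for this difference. As *C. rattanii* minus *C. linearis* on the log2 scale, the difference was 7.71 for RCORA17687 (edgeR FDR = 0.123) and 7.17 for RCORA64670 (edgeR FDR = 0.139). It was -4.31 for RCORA173729 (edgeR FDR = 0.139) and -5.64 for RCORA55326 (edgeR FDR = 0.178). These 4 genes were named for their low p for this difference. Among the pollen exine genes, which the study selected on these libraries, it was 9.63 for RCORA171666 (edgeR FDR = 0.139) and 4.37 for RCORA186672 (edgeR FDR = 0.255). Among the genes with the largest lowered levels in *C. rattanii*, it was -8.01 for RCORA182504 (edgeR FDR = 0.293) and -8.39 for RCORA71035 (edgeR FDR = 0.203). Some of the *C. rattanii* changes were slight or thinly covered. RCORA171666 changed by only 0.04 in plant 2, and RCORA173729 had 3 to 17 counts in each library. The *C. rattanii* change of RCORA71035 was -1.41 without B1 of plant 3.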

How the results depend on the processing

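Genes past FDR 0.01 at the *C. rattanii* step, 0 in edgeR's quasi-likelihood test, were 0 with the replicate block, with 6 or 9 libraries alone, under other scalings and filters and at FDR 0.05, and 49, 11 and 1 with DESeq2, edgeR's likelihood ratio test and limma-voom, and 0 to 1 over the leave-outs. The species difference, also 0, was 2 with the replicate block, 164, 91 and 20 with DESeq2, the likelihood ratio test and limma-voom, and 0 to 98 over the leave-outs. The cause was not tested. The 1475 genes at an unadjusted p under 0.05 were 2868 with limma-voom and 736 to 2019 over the leave-outs. The share of genes higher at B2, 46.1%, was 44.6% with DESeq2 and with the block on 6 libraries, 47.3% with 6 libraries, with 9 libraries and with limma-voom, 51.2% with RLE scaling, 52.5% with the stricter filter, and 46.8% to 53.1% over the leave-outs. DESeq2's 49 calls, an alternative added after seeing the data, were 96 with the replicate block, 80 with 6 libraries, 147 with both, 112 at FDR 0.05 and 7 to 120 over the leave-outs, with 2 to 40 of the 49 kept. The mean correlation between plants, 0.103, was 0.0888 to 0.113, while over genes with a mean of at least 10 CPM plants 1 and 3 gave 0.178 in place of 0.0973 and plants 2 and 3 -0.329 in place of -0.188.

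The 16 genes with the lowest p kept their direction under all alternatives run. They were chosen with all B2 libraries on one side of all B1 libraries. Leaving out libraries could therefore hardly turn their sign, and the kept direction is no separate support. With limma-voom the sign turned for RCORA09826 (0.13), RCORA14962 (0.70), RCORA221448 (-0.19), RCORA221618 (-0.34) and RCORA90323 (0.01). Over the leave-outs it turned within these ranges: RCORA03278 -0.29 to 0.51, RCORA68085 -0.32 to 0.16, RCORA167005 -0.32 to 0.66, RCORA09826 -0.74 to 0.16, RCORA14962 -0.93 to 0.82, RCORA202024 -0.74 to 0.71, RCORA61416 -0.85 to 0.47, RCORA221448 -0.17 to 0.52, RCORA221618 -0.28 to 0.30, RCORA90323 -0.55 to 0.01, RCORA96553 -0.91 to 0.27 and RCORA02590 -0.32 to 0.68. None of these genes had passed the threshold.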
